A study of Rattus norvegicus with 10 samples.

Results

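Mammary tumours differ in how many of their cells are dividing, and transcripts of the cell division machinery carry that difference into bulk RNA. The 10 tumours of this series were divided by those transcripts into 5 with a high and 5 with a low cell cycle level, and the genes outside the cell cycle were then compared between the 2 kinds. The level was the mean of a core list of replication and mitosis genes, each taken as log2 intensity minus the 75th percentile of its array, so that 0 is the 75th percentile. Tumours above 0 were called high (WD2, WD3, CD1, CD2 and CD5) and those below 0 low (WD1, WD4, WD5, CD3 and CD4). The split is not a condition of the study and was taken from the same arrays. No growth rate or mitotic count was used here, so the kinds are named by transcript level only.

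The series asks how the diet of the dam bears on gene expression in tumours of the daughters. Sprague-Dawley dams were fed a Western-style diet, rich in fat and poor in fibre and trace elements (tumours WD1 to WD5), or a control diet (CD1 to CD5), in gestation from day 12 to 20 and after birth from day 1 to 21. All daughters ate control diet from weaning and received 50 mg/kg of the alkylating carcinogen N-methyl-N-nitrosourea by intraperitoneal injection at 3 weeks of age. The tubular or papillary mammary tumours were hybridised singly to 1-colour Agilent whole rat genome arrays, and the labels give an age of 110 days. The high kind held 2 tumours of Western-style diet dams and 3 of control diet dams, the low kind 3 and 2, so diet was a covariate in every comparison unless stated. The labels do not name dams or litters, so the p-values measure only the spread between these tumours.

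A cell that divides passes through DNA replication (S phase) and mitosis (M phase), and each needs its own set of proteins. The replication genes include the Mcm subunits of the replicative helicase, Pcna and the ribonucleotide reductase subunits Rrm1 and Rrm2. The mitotic genes include the cyclins Ccnb1 and Ccnb2, their kinase Cdk1, the kinases Aurka, Aurkb and Plk1, and the spindle protein Prc1. Retinoblastoma family proteins hold these genes down in resting cells, and the inhibitors encoded by Cdkn2a, Cdkn2b, Cdkn1a and Cdkn1b act on the kinases that release them. Promoters of mitotic genes are known for a short element of the sequence TTTGAA (the cell cycle genes homology region) close to the start of transcription, often with CCAAT boxes upstream of it.

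The 150 bases before the start of transcription are printed for 5 genes, from RefSeq (GRCr8), because Ccnb2 and Prc1 carry the elements described for mitotic genes and the other three are genes outside the cell cycle lists that passed the threshold. Each line runs 5′ to 3′ on the strand of the gene, with TTTGAA and CCAAT, or the CCAAT box read from the other strand (ATTGG), in capitals. Ccnb2 lies at chr8:79981659-79981808 (minus strand), Prc1 at chr1:143659331-143659480 (plus), H3f4 at chr10:44240132-44240281 (plus), Notch4 at chr20:4189073-4189222 (minus) and Ltc4s at chr10:35063595-35063744 (minus).
Ccnb2: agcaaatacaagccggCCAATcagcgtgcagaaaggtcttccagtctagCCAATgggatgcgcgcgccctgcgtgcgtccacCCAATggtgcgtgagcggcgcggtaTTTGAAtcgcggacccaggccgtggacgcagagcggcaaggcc
Prc1: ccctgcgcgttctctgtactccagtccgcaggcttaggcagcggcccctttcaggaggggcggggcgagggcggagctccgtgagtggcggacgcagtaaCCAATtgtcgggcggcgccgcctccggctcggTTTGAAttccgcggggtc
H3f4: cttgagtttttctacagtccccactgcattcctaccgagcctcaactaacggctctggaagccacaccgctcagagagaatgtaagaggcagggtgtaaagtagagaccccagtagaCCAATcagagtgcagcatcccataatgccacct
Notch4: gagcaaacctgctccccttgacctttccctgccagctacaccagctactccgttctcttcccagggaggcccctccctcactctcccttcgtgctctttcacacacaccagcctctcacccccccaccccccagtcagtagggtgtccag
Ltc4s: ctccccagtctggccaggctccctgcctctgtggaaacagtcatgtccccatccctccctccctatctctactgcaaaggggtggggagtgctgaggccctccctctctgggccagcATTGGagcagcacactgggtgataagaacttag

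In Ccnb2, 3 CCAAT boxes began 134, 101 and 68 bases before the start, and a TTTGAA element began 43 bases before it. In Prc1, which bundles microtubules in the dividing cell, CCAAT began at 50 and TTTGAA at 18. H3f4, a histone H3 gene, had CCAAT at 33 and no TTTGAA in the stretch searched. Ltc4s had the reverse CCAAT box at 33, and Notch4 had neither motif. Over the 250 bases before the start and on both strands, TTTGAA was found for 45 of the 134 measured cell cycle genes with a promoter in the table (33.6%) and for 10.2% of all measured genes with a symbol. It was found for 3 of 10 of the genes named below as higher and for 1 of 8 of those named as lower. CCAAT was found for 82 of the 134 cell cycle genes (61.2%) and for 36.7% of all measured genes with a symbol. It was found for 6 of 10 of the genes named as higher and for 5 of 8 of those named as lower. Among genes of the unfolded protein response CCAAT was found for 13 of 15 (86.7%). GCGGGAA, 1 form of the site bound by E2F factors, was found for 12.7% of the cell cycle genes and 6.66% of all measured genes with a symbol. Car2 and Penk were not in the promoter table. A match is a run of letters in this window and was not tested as a binding site.

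Of 41 core genes, 36 were on the array with a RefSeq name and 33 were kept by the filter on dim probes. Their mean was 0.63 in WD2, 0.25 in WD3, 0.80 in CD1, 0.24 in CD2 and 0.81 in CD5. It was -0.87 in WD1, -1.42 in WD4, -0.29 in WD5, -0.81 in CD3 and -0.39 in CD4. CD2 and WD3 lay just above 0 and WD5 just below it, so these 3 tumours are the nearest to a change of side. The split by the core mean put 10 of 10 tumours on the side named for them. All 33 core genes had a higher mean in the high tumours, by 0.39 (Mcm7) to 2.09 (Rrm2) with a median of 1.39, and for 20 of them the kinds did not overlap. These genes set the split, so the differences are a description with no test.

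**Figure D1:**
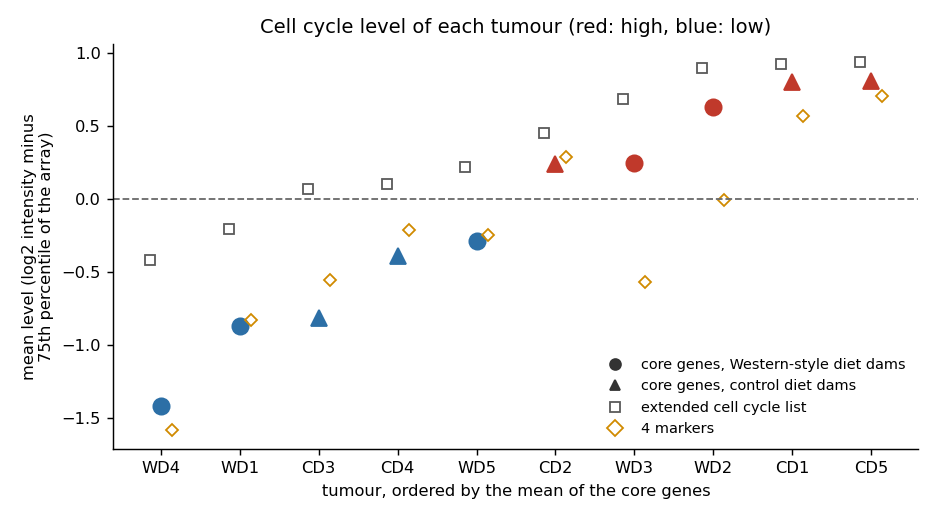
Mean level of the core cell cycle genes in each tumour (filled circles for Western-style diet dams, filled triangles for control diet dams), with the mean of the 130 measured genes of an extended cell cycle list (open squares) and of 4 markers (open diamonds), on the y axis in log2 units relative to the 75th percentile of the array. The core mean runs from -1.42 in WD4 to 0.81 in CD5, while the 4 markers put WD3 at -0.57, on the low side of 0.

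The order of the tumours depended on the genes averaged. The kinase Aurka, the helicase subunits Mcm7 and Mcm3 and the reductase subunit Rrm1 are 4 markers of the programme. Their mean was -0.57 in WD3 and just under 0 in WD2, both high by the core list, so 8 of 10 tumours kept their side. In WD3 the level of Aurka was -2.19 and that of Rrm1 was -1.30, below the values of several low tumours. The extended list lay above 0 in WD5 (0.22), CD3 (0.07) and CD4 (0.10), so 7 of 10 tumours kept their side of 0, although every high tumour (0.45 to 0.93) lay above every low tumour (-0.42 to 0.22). Within the core list the narrowest differences were those of Mcm7 (0.39), the kinase Cdk2 (0.49), the clamp loader subunit Rfc4 (0.51) and Pcna (0.63), all of which act in S phase. The widest were those of Rrm2 (2.09), the ubiquitin-conjugating enzyme Ube2c (1.85), Ccnb1 (1.84) and the survivin gene Birc5 (1.83), of which the last 3 act in mitosis. The differences did not part by phase, since the replication gene Mcm6 differed by 1.81 and the mitotic kinase gene Aurka by 0.84.

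Array brightness was checked first. Its measure, the 75th percentile of the intensities of an array, ran from 72.8 to 226 in the high tumours (median 188). In the low tumours it ran from 85.0 to 190 (median 112). An exact two-sided permutation within diets gave p = 0.99 for its log2 value. That test averaged the differences of both diets, which ran in opposite directions, so it cannot show balance within a diet. Among Western-style diet tumours the measure was 81.0 in WD2 and 72.8 in WD3 (high), against 98.6 to 170 in the low tumours. Among control diet tumours it was 188 to 226 in the high tumours, against 85.0 in CD3 and 190 in CD4 (low). Between 16710 and 21470 probes were well above background in the high tumours and between 16698 and 21926 in the low tumours. Pairs of arrays correlated at 0.915 to 0.977 over the genes tested. Each of 3 slides held both kinds. Differences given below within a diet were not adjusted for brightness, so brightness is not separated from contrasts between the diets. The tumours carried luminal epithelial transcripts in both kinds: Krt18, a keratin of luminal cells, lay at 8.24 to 9.10 in the high and 8.40 to 8.91 in the low tumours.

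Outside the cell cycle lists, 18 of 16625 genes passed an adjusted p of 0.05 in limma (0.108%), 13 of them higher (0.0782%) and 5 lower (0.0301%) in the high tumours. Without adjustment, 1271 genes had a p under 0.05 (7.65%), of which 525 were higher (3.16%) and 746 lower (4.49%). In the cell cycle lists, used for the split, 9 of 163 genes passed the threshold, all higher (5.52%), from which nothing is read. The median difference over the 16625 genes outside those lists was -0.01, a value that the scaling of each array to its own 75th percentile holds near 0. Among the 18, the histone gene H3f4 rose with the cell cycle level, and Car2, Notch4, Penk and Ltc4s fell. A further 12 had no RefSeq symbol. The cell cycle lists were matched by symbol, so transcripts of the cell cycle may be among these 12, and for such transcripts the split itself would set the difference. A_44_P720741 was higher by 1.76 ± 0.22 (SE) and the transcript ENSRNOT00000044930 by 1.29 ± 0.16, and the expressed sequence tag BF390510 was lower by 2.28 on the log2 scale with an SE of 0.36. Both A_44_P720741 and BF390510 moved with the background correction: the former was higher by 0.48 in the deposited series matrix, whose signals keep their background, and the difference of BF390510 was -0.50 with another correction of the median spot signal (normexp). The interaction of split and diet passed the threshold for 0 of 16625 genes in limma, with 689 at an unadjusted p under 0.05 (4.14%) and a smallest adjusted p of 0.849.

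Over the 15 measured genes of hormone receptors and their targets the median difference was 0.18, against -0.01 over all genes, and it was 0.05 without WD1. Fgfr2, a fibroblast growth factor receptor, was higher by 0.70 (adjusted p = 0.396), and Wnt4, a progesterone target in the mammary gland, by 0.72 (adjusted p = 0.400). The estrogen receptor gene Esr1 differed by 0.21 ± 0.38 (SE) and the progesterone receptor gene Pgr by -0.03 ± 0.28, with overlapping kinds. Esr1 lay at -2.60 to -1.80 in the high tumours and at -4.39 to -1.31 in the low tumours.

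H3f4 lay at 1.51, 1.01, 0.92, 0.81 and 1.06 in WD2, WD3, CD1, CD2 and CD5. It lay between 0.00 and 0.32 in the low tumours, so the kinds did not overlap. It rose by 0.94 ± 0.15 (SE; adjusted p = 0.0449). The 12 named genes with the smallest p among those higher by at least 1 held several that serve chromatin, replication or the spindle but stood on neither cell cycle list, which was seen only after their values were known. These were the linker histone gene H1f5 (1.81 ± 0.30, SE; adjusted p = 0.0572), the histone variant gene H2ax (1.06 ± 0.21; 0.0806), Haus4 of the spindle augmin complex (1.03 ± 0.19; 0.0690), the DNA helicase cofactor gene Hrob (1.64 ± 0.33; 0.0806) and the Pcna partner Pclaf (1.69 ± 0.35; 0.0862). None of these 5 passed the threshold. Over the alternatives other than leaving out a tumour, the difference was as small as 0.25 for Haus4 and 0.33 for Hrob. For H2ax, Pclaf and H1f5 the smallest were 0.58, 1.07 and 1.21. H1f5 lay at 2.11 to 4.07 in the high and 0.86 to 2.03 in the low tumours.

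The other genes among the 12 have no known place in the division cycle or none given here. Ripply3, which encodes a transcriptional corepressor, was not well above background on any low array. Its high tumours were at least 3.77-fold above the level that could be measured there (adjusted p = 0.0543). It passed the filter on dim probes only through the high arrays, so these values are a description. Its difference of 2.17 fell to 0.51 in the weakest alternative. The neuropeptide gene Npw was higher by 1.89 ± 0.37 (SE; adjusted p = 0.0779), at 3.20 to 5.11 in the high and 1.73 to 2.57 in the low tumours. The alkaline phosphatase gene Alpl was higher by 1.69 ± 0.35 (adjusted p = 0.0862), at 0.37 to 0.90 in the high and -2.00 to -0.11 in the low tumours. Cbs, which makes cystathionine from homocysteine and serine, was higher by 1.07 ± 0.23 (adjusted p = 0.0904). Cxadrl1 was higher by 2.16 ± 0.47 and Eddm3b by 1.57 ± 0.36, with adjusted p of 0.105 and 0.114. Over the alternatives other than leaving out a tumour, the difference was as small as 0.34 for Cxadrl1 and 0.51 for Eddm3b. For all 12 the kinds did not overlap, as for 0.752% of all genes, but the 12 were chosen by their p in this comparison, so that count is a description.

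Car2 encodes carbonic anhydrase 2, the cytosolic enzyme that interconverts carbon dioxide and bicarbonate. It lay at 1.67 in WD2, 1.68 in WD3, 1.27 in CD1, 1.00 in CD2 and 1.14 in CD5. The low tumours lay at 3.50 in WD1, 3.45 in WD4, 2.98 in WD5, 2.23 in CD3 and 2.62 in CD4, all above every high tumour. Car2 fell by 1.46 on the log2 scale, with an SE of 0.17 (2.75-fold; adjusted p = 0.0298). The difference was -1.63 within the Western-style diet tumours and -1.29 within the control diet tumours.

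Notch4 encodes a receptor of the Notch family that is known chiefly from endothelium. It lay at 2.66, 1.95, 2.64, 2.51 and 2.74 in WD2, WD3, CD1, CD2 and CD5, and at 4.14, 4.53, 4.56, 4.67 and 3.75 in WD1, WD4, WD5, CD3 and CD4. The kinds did not overlap. Notch4 fell by 1.84 on the log2 scale, with an SE of 0.23 (3.59-fold; adjusted p = 0.0298). Of the endothelial list, 5 of 7 measured genes were lower in the high tumours, with a median of -0.12 that shrank to -0.00039 without CD3. Its mean level was -1.73 in CD1, -1.05 to -0.78 in the other high tumours and -1.03 to -0.38 in the low tumours. Flt1, a receptor for vascular endothelial growth factor, was lower by 0.76 ± 0.24 (SE; adjusted p = 0.307). The cadherin gene of endothelial junctions, Cdh5, was higher by 0.20, and Pecam1, Tek, Tie1 and Vwf were among the endothelial genes that gave no value. The part of endothelial RNA in the Notch4 difference was not tested. In such bulk tumours, fewer cells of a type and less RNA per cell cannot be told apart.

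Penk encodes proenkephalin, the precursor of the enkephalin peptides. It lay at 2.09, 2.24, 1.28, 2.31 and 2.49 in WD2, WD3, CD1, CD2 and CD5, and at 4.84, 5.57, 3.90, 3.88 and 3.94 in WD1, WD4, WD5, CD3 and CD4. A gap of more than 1 log2 unit separated the kinds. Penk fell by 2.24 on the log2 scale, with an SE of 0.34 (4.74-fold; adjusted p = 0.0449).

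Ltc4s encodes leukotriene C4 synthase, the enzyme of cysteinyl leukotriene synthesis, made by mast cells and macrophages among others. It lay at 0.98 and 1.00 in WD2 and WD3 but at 2.48, 2.41 and 2.15 in CD1, CD2 and CD5. The low tumours lay at 3.29, 2.40, 2.91, 3.78 and 3.11 in WD1, WD4, WD5, CD3 and CD4, so that WD4 lay below CD1 and CD2 and the kinds overlapped when diet was ignored. With diet in the fit, Ltc4s fell by 1.49 on the log2 scale (SE 0.24, adjusted p = 0.0469), and without diet as a covariate its adjusted p was 0.201. It was lower while most mast cell genes were higher, as given below.

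**Figure D2:**
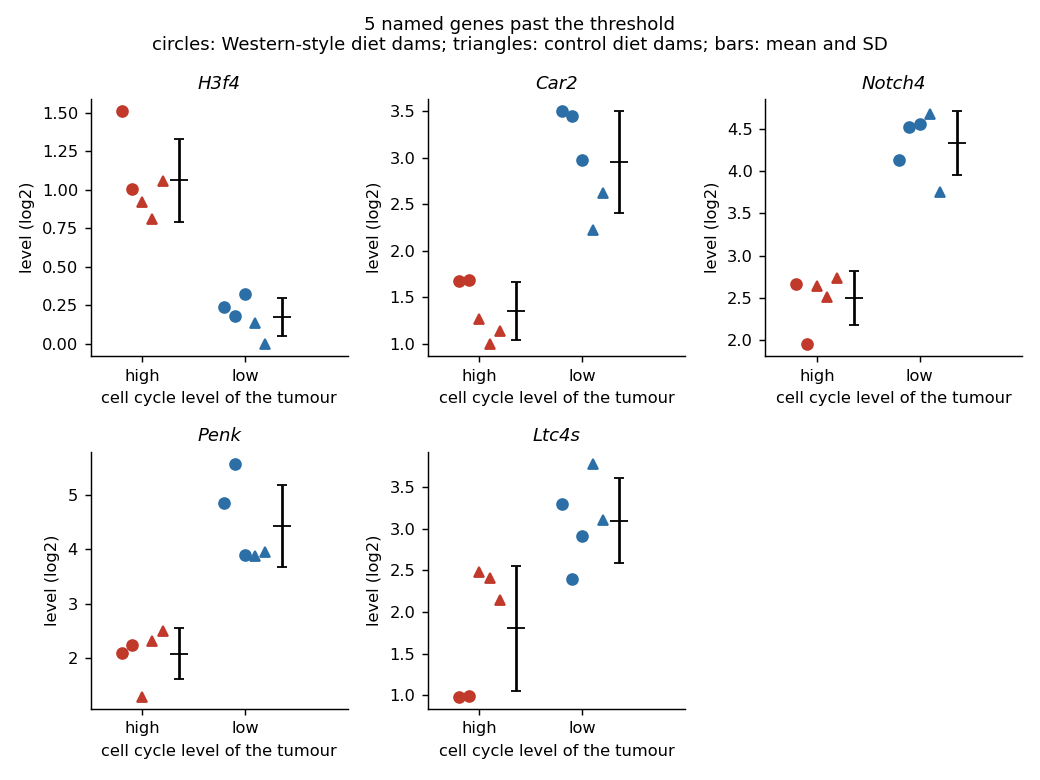
Levels in each tumour (y axis, log2 intensity minus the 75th percentile of the array) of 5 genes with a symbol that passed the threshold outside the cell cycle lists, by kind of tumour; circles are tumours of Western-style diet dams, triangles of control diet dams, and the bar gives the mean and SD of 5 tumours. For H3f4, Car2, Notch4 and Penk no high tumour reaches the range of the low tumours; for Ltc4s WD4 (2.40) lies among the high control diet tumours.

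The 5 genes were chosen by their p in this comparison, so values within slides are a description, and where the kinds do not overlap the direction within a slide is fixed. Within the 3 slides the difference of Penk was -2.64 to -2.36. With array brightness as a further covariate 18 genes were again called, but only 12 of them were the same. H3f4, Penk and Ltc4s then missed the threshold (adjusted p of 0.0528, 0.0528 and 0.0539). No gene was called when WD1, WD2, WD3, WD4, CD1, CD3 or CD5 was left out, whereas 50 were called without WD5, 31 without CD2 and 9 without CD4. The balance of directions also moved with the scaling: 1 gene was higher and 2 lower with quantile scaling, and 33 were higher and 23 lower in the deposited series matrix.

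Among the genes lower in the high tumours, Hspb1, which encodes a small heat shock protein, was lower by 1.51 ± 0.26 (SE; adjusted p = 0.0620), at 1.79 to 3.06 against 3.33 to 4.16. The alarmin gene Il33 was lower by 2.36 ± 0.44 (adjusted p = 0.0708). It lay at 3.59 in WD2, 1.25 in WD3, 5.19 in CD1, 4.27 in CD2 and 4.14 in CD5, and at 5.08 to 6.68 in the low tumours, so that CD1 reached their range. Id1, an inhibitor of basic helix-loop-helix factors, was lower by 1.60 ± 0.31 (adjusted p = 0.0759), with -0.84 to 0.50 against 0.71 to 2.14. Plau, the urokinase gene, was lower by 1.41 ± 0.27 and the adenylate cyclase gene Adcy2 by 1.56 ± 0.30 (adjusted p of 0.0730 and 0.0767). Plau and Adcy2 were dim, and their levels were below 0 in every tumour. Tm4sf1, a surface protein gene, was lower by 1.30 ± 0.25, Baalc by 1.52 ± 0.29 and Tcim by 1.01 ± 0.20, with adjusted p of 0.0744 to 0.0779. Over the alternatives other than leaving out a tumour, the difference was as small as -0.02 for Baalc and -0.04 for Plau. Of the 12 genes named as lower, 4 passed the threshold, and the kinds did not overlap for 8, as for 0.782% of all genes in that direction.

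The list of cell cycle inhibitors and D cyclins was mostly lower where the cell cycle genes were high. It also holds genes that drive the cycle (the D cyclins) or oppose p53 (Mdm2). Of 25 measured genes 19 were lower in mean and 0 passed the threshold. At an unadjusted p under 0.05, 6 were lower (24.0%, against 4.49% of all genes) and 1 higher (4.00%, against 3.16%). The median difference was -0.16, with -0.10 without WD4 and -0.24 without WD3. The mean level of the list was 1.04 to 1.28 in the high and 1.33 to 1.63 in the low tumours, without overlap. Cdkn2b, which encodes the kinase inhibitor p15, lay at -1.73, -3.51, -1.54, -1.99 and -3.26 in WD2, WD3, CD1, CD2 and CD5, and at 0.59, 0.39, -0.69, -0.64 and -0.38 in WD1, WD4, WD5, CD3 and CD4. It was lower by 2.24 ± 0.45 (SE; adjusted p = 0.0806), without overlap. Cdkn2a, whose probe does not tell its p16 and Arf transcripts apart here, was lower by 1.63 ± 0.38 (adjusted p = 0.122), at -0.90 to 1.62 against 1.85 to 3.08. Mdm2, the ubiquitin ligase gene that p53 switches on, was lower by 0.59 ± 0.17 (adjusted p = 0.249), at 1.19 to 1.48 against 1.68 to 2.43. A second probe of Mdm2 gave -0.23 ± 0.25. The best known inhibitors gave no separation: Cdkn1a differed by -0.48 ± 0.33 and Cdkn1b by 0.37 ± 0.20, and the D cyclin gene Ccnd1 by -0.14 ± 0.31. The retinoblastoma gene Rb1 differed by -0.41 ± 0.24 and Myc by 0.42 ± 0.22.

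Among genes of cell death and of the immediate early response, Bik and Jun did not overlap between the kinds. Over all genes this held for 0.752% in the direction of Bik (higher) and 0.782% in that of Jun (lower). Bik, a cell death gene of the Bcl-2 family, was higher by 0.86 ± 0.15 (SE; adjusted p = 0.0620), at 1.61 to 2.24 in the high and 0.79 to 1.55 in the low tumours. Jun, which encodes a subunit of the AP-1 factor, was lower by 0.80 ± 0.19 (adjusted p = 0.132), at 2.88 to 3.81 against 3.96 to 4.42. The death receptor gene Fas was lower by 0.99 ± 0.33 (adjusted p = 0.363), with overlap. Nr4a1, also of the immediate early list, went the other way from Jun and was higher by 0.83, with overlap. Of 18 measured apoptosis genes (6 higher, 12 lower) and 17 immediate early genes (7 higher, 10 lower), 0 passed the threshold.

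Igf2, an imprinted growth factor gene of fetal tissue, was among the widest differences. It lay at 0.31 in WD2, 0.48 in WD3, -0.06 in CD1, -1.24 in CD2 and -1.26 in CD5, and at 0.97 in WD1, 4.19 in WD4, 3.14 in WD5, 2.30 in CD3 and 1.04 in CD4. Every low tumour lay above every high tumour. The difference was -2.45 ± 0.55 (SE; adjusted p = 0.109), with -2.37 within the Western-style diet tumours and -2.52 within the control diet tumours. The fibroblast and matrix list, whose cells are one source of Igf2, overlapped between the kinds (1.06 to 2.65 in the high and 0.89 to 2.47 in the low tumours). Its median difference was -0.38 within the Western-style and 0.28 within the control diet tumours. The part of stromal RNA in the Igf2 difference was not tested. Of 21 measured growth factors and receptors, 0 passed the threshold. The epidermal growth factor family member Btc was higher by 0.85 ± 0.21 (adjusted p = 0.159), while Tgfa, of the same family, was lower by 0.61 ± 0.19 (adjusted p = 0.296). Egfr differed by -0.10 ± 0.17, Erbb2 by -0.16 ± 0.33, Igf1 by -0.56 ± 0.45 and Hras by 0.01 ± 0.15.

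**Figure D3:**
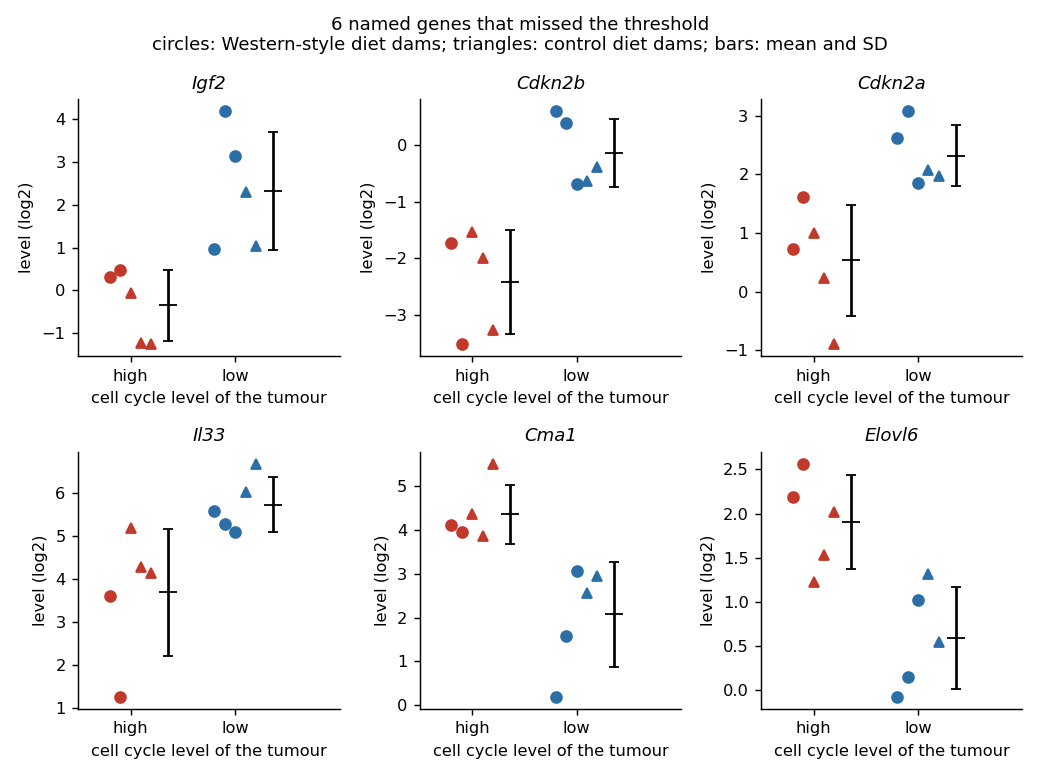
Levels in each tumour (y axis, log2 intensity minus the 75th percentile of the array) of 6 named genes that missed the threshold, by kind of tumour; circles are tumours of Western-style diet dams, triangles of control diet dams, and the bar gives the mean and SD of 5 tumours. Igf2, Cdkn2b, Cdkn2a and Cma1 do not overlap between the kinds; for Il33 CD1 (5.19) reaches the low tumours, and for Elovl6 CD1 (1.22) lies below CD3 (1.31).

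Genes of protein folding in the endoplasmic reticulum were lower in the high tumours. All 18 measured genes of the unfolded protein response had a lower mean there, 5 at an unadjusted p under 0.05 (27.8%, against 4.49% of all genes) and 0 past the threshold, with a median difference of -0.30. The mean level of the list was 1.89, 2.20, 2.08, 2.06 and 2.01 in WD2, WD3, CD1, CD2 and CD5, and 2.38, 2.38, 2.37, 2.26 and 2.25 in WD1, WD4, WD5, CD3 and CD4. The 5 high tumours thus lay below the 5 low tumours, by a gap smaller than the range within either kind. Hsp90b1, a chaperone of the endoplasmic reticulum, was lower by 0.36 ± 0.13 (SE; adjusted p = 0.450), and a second probe of it gave -0.21 ± 0.19. Hspa5, the chaperone that senses unfolded protein, was lower by 0.42 ± 0.16 (adjusted p = 0.477). Of 20 measured cytosolic and mitochondrial chaperones 16 were lower, with a median of -0.16 (-0.27 without CD4). Hsph1 led them at -0.81 ± 0.22 (adjusted p = 0.229).

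Genes of glycolysis and of the response to low oxygen were also lower: 21 of 26 measured genes, 8 of them at an unadjusted p under 0.05 (30.8%, against 4.49% of all genes) and 0 past the threshold, with a median of -0.33. The list level was 2.45 to 3.08 in the high and 2.87 to 3.37 in the low tumours, with CD1 inside the low range. Slc16a3, the lactate exporter gene, was lower by 1.17 ± 0.30 (SE; adjusted p = 0.178). P4ha1, a collagen prolyl hydroxylase gene, was lower by 0.87 ± 0.23 (adjusted p = 0.201) and the mitophagy gene Bnip3 by 0.45 ± 0.13 (adjusted p = 0.247), both without overlap. Bnip3 lay at 1.92 to 2.06 in the high and 2.31 to 2.63 in the low tumours. Vegfa, a target of the same response, differed by 0.33 within the Western-style diet tumours and by -1.04 within the control diet tumours, and overlapped.

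Genes of the building blocks for growth showed smaller differences. Of 29 measured genes of fatty acid and cholesterol synthesis 23 were higher, 4 at an unadjusted p under 0.05 (13.8%, against 3.16% of all genes) and 0 past the threshold, with a median of 0.15 (0.08 without WD3). Elovl6, the elongase that makes stearate from palmitate, was higher by 1.34 ± 0.33 (SE; adjusted p = 0.156), by 2.01 within the Western-style and 0.66 within the control diet tumours. Fasn, the fatty acid synthase gene, differed by -0.02 ± 0.19. Of 10 measured genes of serine and one-carbon metabolism 7 were higher (median 0.23), led by Phgdh, the first enzyme of serine synthesis, at 0.69 ± 0.22 (adjusted p = 0.334). Of 26 splicing factor genes 23 were higher (median 0.15, and 0.10 without CD5), with Snrpa at 0.55. The medians were near 0 for ribosome biogenesis (30 genes), cytosolic ribosomal proteins (37 genes, -0.03) and oxidative phosphorylation (37 genes, 0.02), where 0 genes in either direction had an unadjusted p under 0.05. By limma's adjusted p, 0 genes of these lists were called.

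**Figure D4:**
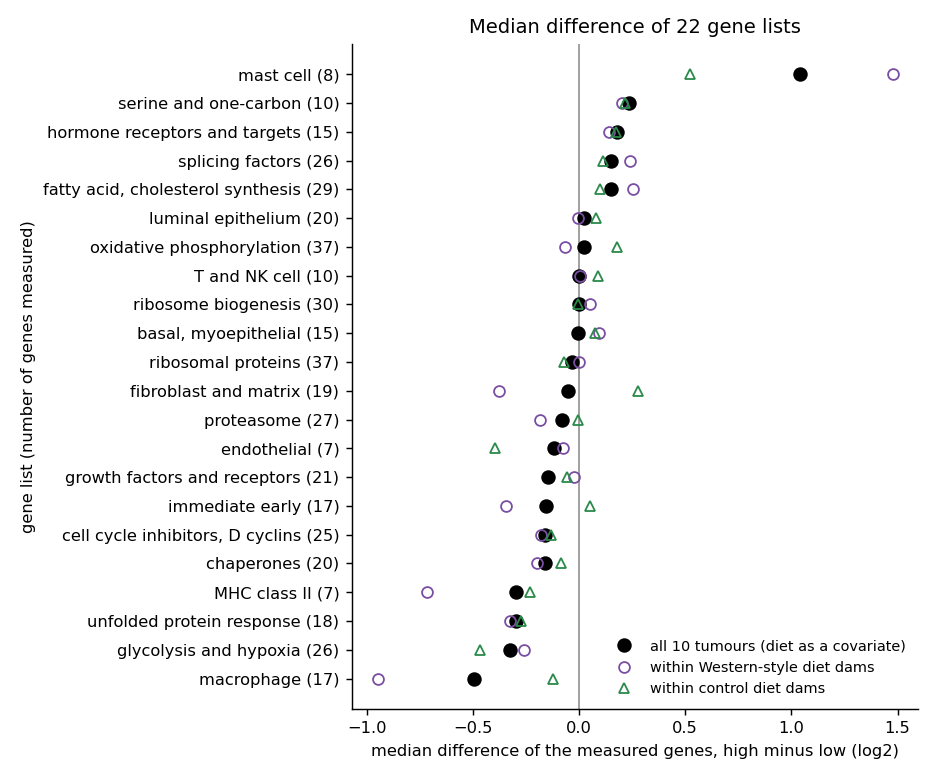
Median over the measured genes of each of 22 lists (y axis, with the number of genes) of the difference between high and low tumours (x axis, log2), over all 10 tumours with diet as a covariate (filled circles) and within the tumours of Western-style diet dams (open circles) and of control diet dams (open triangles). The mast cell list lies highest (1.04) and the macrophage list lowest (-0.49), and both are further from 0 within the Western-style diet tumours.

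Among the other cell types of the tumour, the mast cell list differed most. Of 8 measured genes 7 were higher in the high tumours and 4 had an unadjusted p under 0.05 (50.0%, against 3.16% of all genes), with a median of 1.04 and 0 past the threshold. Cma1, the chymase gene, lay at 4.11, 3.94, 4.37, 3.86 and 5.51 in WD2, WD3, CD1, CD2 and CD5, and at 0.18, 1.58, 3.07, 2.57 and 2.96 in WD1, WD4, WD5, CD3 and CD4. It was higher by 2.12 ± 0.50 (SE; adjusted p = 0.129), without overlap. The carboxypeptidase gene Cpa3 was higher by 1.49 ± 0.43 (adjusted p = 0.247) and the tryptase gene Tpsb2 by 1.19 ± 0.32 (adjusted p = 0.190). The list level was 0.71 to 1.72 in the high and -1.22 to 0.92 in the low tumours, with CD3 inside the high range. The high-affinity IgE receptor gene Fcer1a, a defining marker, gave no value, and Kit was lower by 0.22 on the log2 scale.

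Macrophage genes went the other way. All 17 measured genes were lower in mean, with a median of -0.49, yet 0 passed the threshold and 0 reached an unadjusted p under 0.05, against 4.49% of all genes. The median rested in part on single tumours, with -0.12 without WD2 and -0.75 without WD3. The list level overlapped, at 1.23 to 2.87 in the high and 1.67 to 3.40 in the low tumours. The median was -0.95 within the Western-style diet tumours and -0.12 within the control diet tumours, and for no gene did the difference between diets pass the threshold. These medians were not adjusted for array brightness, which ran in opposite directions within the diets. Cd68, a lysosomal protein gene of macrophages, was lower by 0.73 ± 0.42 (adjusted p = 0.767). All 7 measured MHC class II genes were lower in mean, with a median of -0.30, but the median was 0.0068 without WD2 and -0.68 without WD3. RT1-Bb led with -1.02 ± 0.35, but a second probe of that gene gave 0.67. The chemokine genes Cxcl1 and Cxcl2 were lower by 2.60 and 4.09 within the Western-style diet tumours and by 0.14 and 0.30 within the control diet tumours, and overlapped.

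The luminal and the basal epithelial lists had medians near 0, with members in both directions. The median was 0.02 for 20 luminal genes and 0.00 for 15 basal and myoepithelial genes, of which 3 were higher at an unadjusted p under 0.05 (20.0%, against 3.16% of all genes). Of these 15, 7 were higher and 8 lower in mean. The keratin gene Krt5 differed by -0.23 ± 0.25 (SE) and Krt14 by -0.0045 ± 0.29. The desmosomal cadherin gene Dsc3 was higher by 1.12 ± 0.44 (SE; adjusted p = 0.481), by 1.97 within the Western-style and 0.28 within the control diet tumours. Myh11, the smooth muscle myosin gene of myoepithelium and vessel walls, was higher by 2.70 ± 0.79 (SE; adjusted p = 0.259), but the low tumour CD4 (2.89) lay within the high range of 1.44 to 3.44. A second probe of Myh11 gave 1.4 ± 0.47. The milk protein gene Csn2 differed by 0.68 ± 0.60, with WD1 apart from the other low tumours. Lalba, the gene of alpha-lactalbumin, differed by 2.79 ± 1.90 and Glycam1 by 2.13 ± 1.40 (adjusted p of 0.833 and 0.818), both with overlap. Of the 9 measured milk and secretory genes 4 were higher and 5 lower, with a median of -0.17. That median was -0.61 within the Western-style and 0.61 within the control diet tumours. Fabp3, a fatty acid binding protein gene of the lactating gland, was lower by 1.14 ± 0.26 (adjusted p = 0.113), at 0.39 to 1.40 in the high and 1.68 to 2.49 in the low tumours. The T and NK cell list had a median of 0.00 and the fibroblast and matrix list of -0.05. Col1a1, the main collagen gene of stroma, differed by 0.21 ± 0.38.

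**Figure D5:**
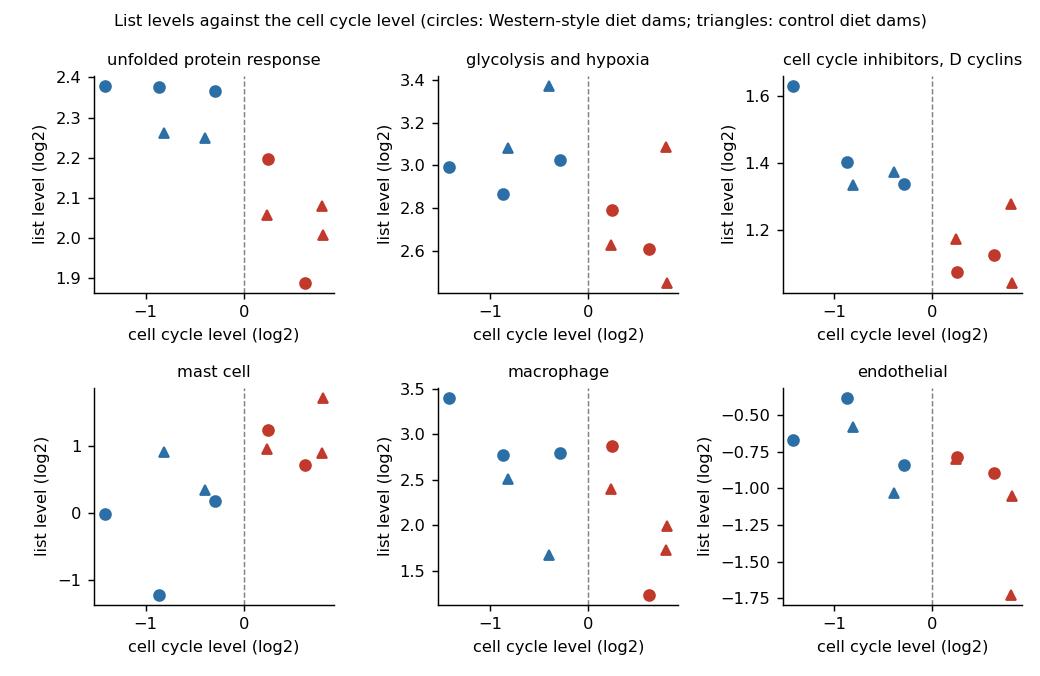
Mean level of 6 gene lists in each tumour (y axis, log2 intensity minus the 75th percentile of the array) against the cell cycle level (x axis, the same unit; dashed line at 0); red marks high and blue low tumours, circles Western-style diet dams and triangles control diet dams. The unfolded protein response and the inhibitor lists separate the kinds, with 1.89 to 2.20 against 2.25 to 2.38 and 1.04 to 1.28 against 1.33 to 1.63, while the macrophage and endothelial lists overlap.

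The tumours of one diet were set against those of the other, which share no tumour with them. Of the genes outside the cell cycle lists, 414 were higher by at least 1 within the Western-style diet tumours, and 72.7% of them were also higher within the control diet tumours, with a median there of 0.46. The same held for 67.4% of the 530 genes lower by at least 1. Chosen in the control diet tumours, 67.7% of 294 higher genes and 70.9% of 285 lower genes kept their direction in the Western-style diet tumours. Over all 16625 genes, with no cut on the size of the difference, 49.6% had the same direction in both, so that share is not a like comparison. Both sets were split by the same cell cycle level. The genes counted still hold some that serve division but stood on neither list, such as H1f5, H2ax and Pclaf. These genes are not independent of each other, and the reading was added after the data had been seen, so the shares are a description.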

How the data were processed

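One array per tumour was measured, 10 in all. Per the file headers, the authors read the arrays with Agilent Feature Extraction 11.5.1.1 (the submitters' processing notes name 15.5). The deposited scanner files hold spot intensity values, background-subtracted and not scaled between arrays per the file headers, with the median intensity of each spot and of its background. The deposited series matrix holds log2 values. Its columns ranked as the median signals of their own arrays, which leaves background in; its scaling is unstated.

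Here log2 processed signals minus the 75th percentile of the 43379 measuring spots were averaged per probe, without outlier spots. Probes well above background on at least 5 arrays were kept (19755 of 41012), and the probe of highest mean stood for a gene (16788 genes, 8275 with a symbol from RefSeq GRCr8, matched by accession and used for names; probe coordinates, on rn4, were not used). Of 2447 genes with several kept probes, named ones whose probes differ in sign are Fasn, Hras, Psmd1 and RT1-Bb. Differences (high minus low) come from limma 3.58.1 in R 4.3.3 with the split and diet as terms (7 residual degrees of freedom), Benjamini-Hochberg over 16788 genes, and adjusted p under 0.05. Cell cycle genes (163 measured) stayed in the fit and were not counted. They were found by symbol, so genes without a symbol were counted as outside the lists. The code of the fit was tested on simulated arrays with known changes. The number of arrays limits the precision.

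Named genes were, per direction, the 12 with a symbol, a difference of at least 1, 4 bright arrays in the higher kind and the smallest p; the 3 of smallest p of each other list; 24 genes fixed by name (Mki67 was not kept); and the core genes. The text gives part of these, and the results of 1 gene are not reported here. Other genes named were chosen after their values were seen. The kinds, lists and tests were chosen with earlier results of these data known. The alternatives were other background corrections, scalings, filters and covariates, slide and replicate blocks, and leaving out each tumour. Normexp used the median spot signal. Figures were drawn with matplotlib 3.10.9.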

Additional observations from a re-analysis of the deposited data

Results flagged for a closer look

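In groups of 5 tumours, a tumour stood far from the other 4 of its kind in 21 of the 436 groups examined, and chance alone does so in about 1 of 20. WD3 stood apart among the high tumours for 6 genes. Its level of Cd3g, a T cell receptor gene, was 3.81 (others 1.70 to 2.16), and that of Pdgfrb, a receptor of mural cells and fibroblasts, was 1.38 (others -1.02 to -0.40). The clock gene Cry1 was at 0.53 there (others -0.67 to -0.47). Egfr was at 1.95 (others 2.49 to 2.71), Notch4 at 1.95 (others 2.51 to 2.74) and Rrm1 at -1.30 (others 0.0060 to 0.30). In WD2, Aprt was low at 3.69 (others 4.22 to 4.32) and Mylk high at 3.82 (others 2.39 to 2.77). In CD1, Esr1 was high at -1.80 (others -2.60 to -2.49), Gata3 low at 0.89 (others 2.46 to 2.71) and the endothelial list low at -1.73 (others -1.05 to -0.78). In CD2, E2f1 was low at 0.38 (others 1.16 to 1.37) and Nr4a1 low at 1.74 (others 2.49 to 2.63).

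Among the low tumours, WD1 had a low Areg (4.79, others 5.97 to 6.41) and a high Csn2 (-0.60, others -2.74 to -2.44). CD4 had low MHC class II genes: Cd74 was at 5.39 (others 6.38 to 6.75), RT1-Bb at 3.82 (others 5.02 to 5.50) and RT1-Da at 2.99 (others 4.32 to 4.86). Its Glycam1, a milk component gene, was high at 1.44 (others -4.24 to -2.82). Tpx2, a spindle gene, was at -0.27 in WD5 (others -1.93 to -1.53), and the list of inhibitors and D cyclins was at 1.63 in WD4 (others 1.33 to 1.40).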

How the results depend on the processing

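Calls outside the cell cycle lists numbered 18 (13 higher, 5 lower). They numbered 2 (0 and 2) with normexp, 3 (1 and 2) with quantile scaling, 56 (33 and 23) in the series matrix, 0 (0 and 0) with no filter on dim probes, 42 (28 and 14) without diet, 59 (37 and 22) with slide as a block and 154 (91 and 63) with the cell cycle level as a continuous term. Of probes well above background on all 10 arrays, 7 were higher. Within the Western-style diet tumours there were 2 (1 and 1), within the control diet tumours 0 (0 and 0). Leaving out 1 tumour gave 0 to 50 (0 to 38 higher, 0 to 12 lower). With array brightness as a term, 18 became 0 with normexp, 11 with quantile scaling, 36 in the matrix, 1 with no filter, 5 on all 10 arrays, 43 without diet, 35 with slide, 157 with the continuous term and 0 to 42 with 1 tumour left out. Differences between diets stayed at 0 calls except 1 without CD4 (0 to 1 with 1 tumour left out). Same-numbered tumours were not paired (correlations of deviations -0.02 to 0.16); the replicate block called 0 genes, 0 with brightness (0 higher, 0 lower). With no filter the median of all genes moved to 0.13. All 18 called genes kept their direction in every setting that gave them a value, and the medians of the unfolded protein response, glycolysis, mast cell, macrophage, inhibitor and chaperone lists kept theirs in 23 of 23 settings. The cause of the other changes was not tested. Dim probes such as Cdkn2b, Adcy2, Cxadrl1 and Hrob depended on background: the Cdkn2b difference was -0.60 with normexp and -0.78 in the matrix.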
